A study of Mus musculus with 12 samples.

Results

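The brain of bimaternal (BM) mice was compared between late gestation and adulthood, with 1 library at E19.5 (named by the day of embryonic development) and 1 from an adult. The members are the cytosines of chromosomes 1 to 19 that have a methylation value in both libraries. They number 2589611 of 7811806 listed autosomal positions (33.15%). BM animals were made by injecting a parthenogenetic haploid embryonic stem cell (phESC, a cell line whose genome is of maternal origin) into a mature oocyte, so that both genomes are maternal. Both BM brains carry deletions of differentially methylated regions, which the labels write as DMR-KO without naming the regions. The other 10 libraries used for context are 1 wild type (WT) adult brain, whole embryos at E15.5 that are WT, BM or bipaternal (BP, with both genomes paternal), and diploid, androgenetic haploid (ahESC) and parthenogenetic haploid embryonic stem cells at early and late passage. The WT brain, WT embryo and stem cell libraries are labelled WT, and the BM and BP embryos DMR-KO. The labels give no strain, no age in the adults and no number of animals.

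DNA methylation in mammals lies mostly on CpG dinucleotides, where both strands carry it and it is copied at cell division. Unmethylated CpG-rich stretches mark many gene starts, while imprinted genes keep methylation on the copy from 1 parent. In neurons, cytosines followed by A also become methylated, a process known to take place largely after birth through the methyltransferase DNMT3A. Reduced representation bisulfite sequencing (RRBS), used here, reads fragments cut by MspI at CCGG, so it covers CpG-rich sequence. The value of a cytosine is the percent of reads that escaped conversion, and no file used here gives its read depth. In bulk tissue, a changed mix of cell types and a change within a cell type cannot be told apart.

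The adult and E19.5 libraries differ in more than age. The adult BM, adult WT, late ahESC and late phESC libraries have values on unplaced sequence of chromosome Y (2209 to 7697 positions), and the E19.5 library and the other 7 have 0. On the placed part of chromosome Y the adult BM library has 890 positions with a value, against 106 in the E19.5 library, 51 in the BM embryo and 2246 in the WT adult. The late phESC library has 654 there. A BM animal has no paternal genome and so no chromosome Y by its label. The values there go against the label of the adult BM library, on which every adult BM value rests. They are also seen in late phESC, whose genome is of maternal origin, and their source was not tested. At CCGG sites both adult brain libraries read low. This was read in exonic tiles where the other CpGs averaged 60% or more over both BM brains. There the mean of CCGG sites minus that of the other CpGs was -37.2 points in the adult BM brain and -34.5 points in the adult WT brain, against 1.18 points in the E19.5 brain. CCGG sites were therefore left out of the CpG results, and rises are given apart from falls. Age and these differences between libraries cannot be told apart, and with 1 library a group no difference has a replicate error or a test. Differences are in percentage points, and 25 points or more is the size called higher or lower.

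The 4 coding stretches that follow show where the difference sits at single-base scale. They are exon sequence of GENCODE M21, placed on mm9 by the pattern of listed positions, written 5′ to 3′ on the gene's strand, with capitals on the CpGs outside CCGG that were measured in both brains. These genes were chosen after their values were seen. The first 3 lie in tiles that were higher in the adult.
Otud7a, chr7:70903294-70903473, + strand: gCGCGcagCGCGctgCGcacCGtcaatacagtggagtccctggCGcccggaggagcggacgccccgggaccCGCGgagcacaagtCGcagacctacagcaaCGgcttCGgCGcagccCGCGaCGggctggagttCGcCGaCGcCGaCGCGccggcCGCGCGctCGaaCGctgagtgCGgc
Dlgap1, chr17:71167427-71167567, + strand: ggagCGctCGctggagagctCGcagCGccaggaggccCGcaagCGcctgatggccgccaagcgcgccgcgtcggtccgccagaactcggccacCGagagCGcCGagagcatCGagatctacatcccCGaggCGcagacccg
Grin2a, chr16:9992392-9992570, - strand: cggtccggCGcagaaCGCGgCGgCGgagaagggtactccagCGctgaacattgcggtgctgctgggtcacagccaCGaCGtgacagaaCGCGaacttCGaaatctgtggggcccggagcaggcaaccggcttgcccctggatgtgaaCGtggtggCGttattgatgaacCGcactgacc
The last lies in a tile that was lower in the adult.
Nfic, chr10:80883201-80883324, - strand: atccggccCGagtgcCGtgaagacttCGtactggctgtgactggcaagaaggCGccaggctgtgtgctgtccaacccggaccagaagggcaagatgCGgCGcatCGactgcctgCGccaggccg

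In the Otud7a stretch, from a gene for a deubiquitinating enzyme, the 28 capital CpGs averaged 6.86% at E19.5 (1.96 to 18.0%) and 42.1% in the adult (10.8 to 69.0%). All 28 were higher in the adult, and the same CpGs averaged 0.746% in the BM embryo and 31.7% in the WT adult brain. The 12 CpGs of Dlgap1, a scaffold of the postsynaptic density, averaged 24.6% at E19.5 and 59.8% in the adult, with 1.82% in the BM embryo and 53.02% in the WT adult. The 14 CpGs of Grin2a, a subunit of the NMDA-type glutamate receptor, averaged 21.4% and 49.6%, with 12.2% in the BM embryo and 27.99% in the WT adult. Every capital CpG of these 3 stretches was higher in the adult BM brain. In Nfic, a transcription factor of the nuclear factor I family, the 8 CpGs averaged 88.1% at E19.5 and 47.0% in the adult, with 88.2% in the BM embryo and 50.5% in the WT adult. None of the capital CpGs of Nfic was higher in the adult BM brain.

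Over all 244005 exonic CpGs outside CCGG the level was nearly the same at both ages. The mean was 15.2% at E19.5 and 14.9% in the adult, a difference of -0.315 points. The WT adult brain stood at 15.1% and the BM embryo at 14.0% over these sites. Of the CpGs, 0.582% were higher by 25 points or more and 0.781% were lower. Over the 77303 exonic CpGs inside CCGG the means were 37.0% and 21.7%, with 24.5% in the WT adult and 35.1% in the BM embryo, so both adult libraries are the low ones there.

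In tiles of 1 kb with at least 3 exonic CpGs, 46 of 19450 were higher in the adult (0.237%) and 187 were lower (0.961%). The median difference was -0.199 points, with an SD over tiles of 5.54, and 87.0% of tiles differed by less than 5 points. Rises and falls had a different make-up. The higher tiles had a median of 10.5 CpGs, the lower ones 4 and all tiles 8. Of tiles with 3 to 4 CpGs, 138 of 5364 were lower (2.57%) and 12 were higher (0.224%). Of tiles with 10 to 19 CpGs, 2 of 4677 were lower (0.0428%) and 18 were higher (0.385%). With 20 or more CpGs, 6 of 3502 tiles were higher and 0 were lower. The level moves with the number of CpGs, with a mean at E19.5 of 57.1% in tiles with 3 to 4 CpGs, 30.3% with 5 to 9, 7.67% with 10 to 19 and 2.74% with 20 or more, and a tile near 0 cannot be lower by 25 points. In tiles where the 3 embryo libraries averaged 70% or more, the E19.5 mean lay between 88.2 and 90.95% in each of these classes. There 99 of 2926 tiles with 3 to 4 CpGs were lower (3.38%), 29 of 1636 with 5 to 9 (1.77%), 1 of 230 with 10 to 19 (0.435%) and 0 of 35 with 20 or more.

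**Figure D1:**
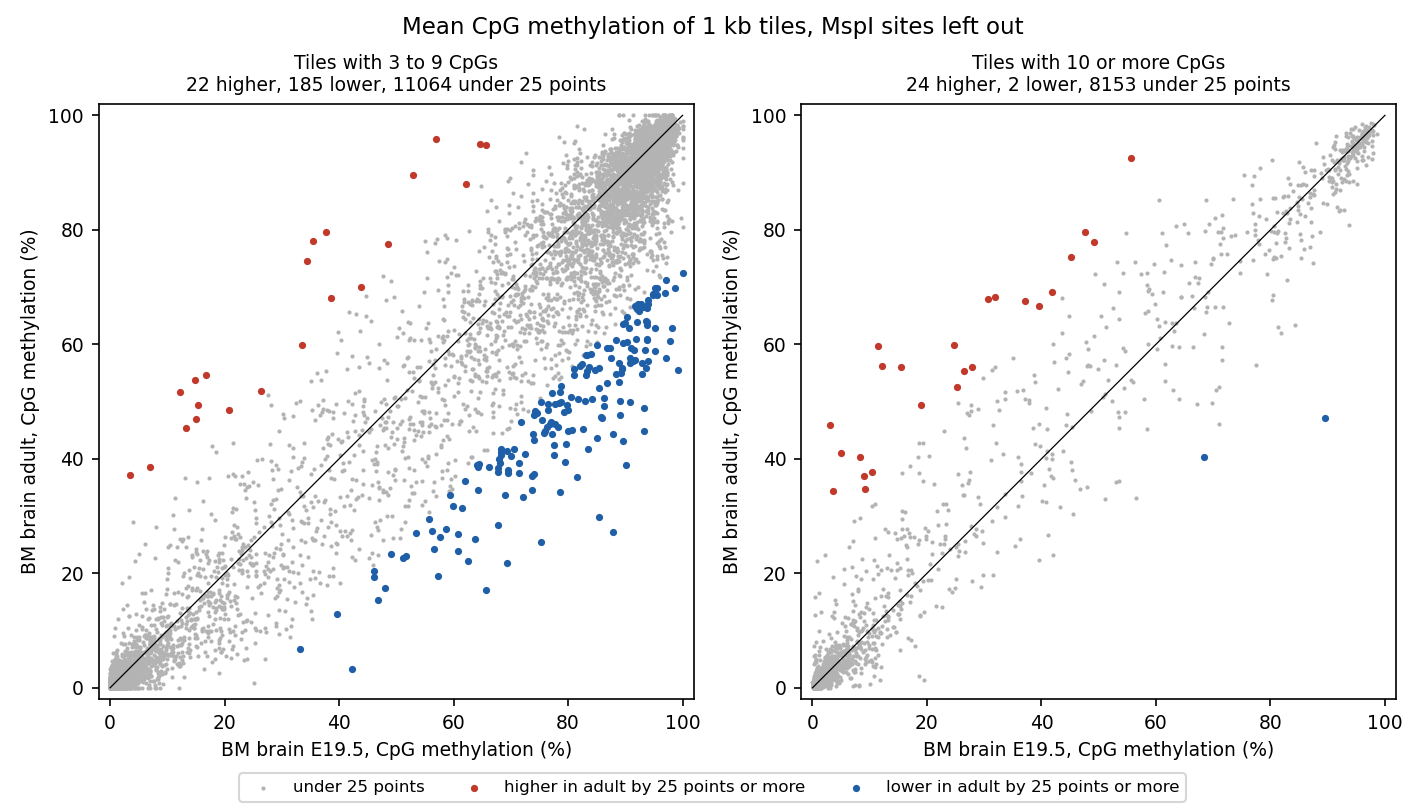
Mean CpG methylation in percent of each 1 kb tile at E19.5 (horizontal axis) and in the adult BM brain (vertical axis), 1 point per tile, with tiles of fewer than 10 CpGs on the left and of 10 or more on the right. Red points are higher and blue points lower by 25 points or more; on the right 24 are red and 2 are blue.

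**Figure D2:**
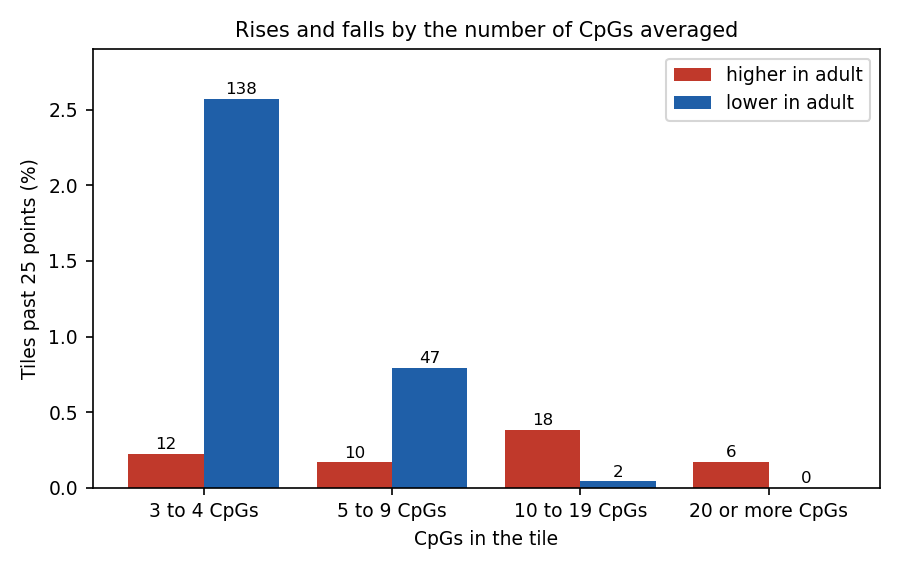
Percent of 1 kb tiles that differed by 25 points or more, as bars for each class of CpG number, with the count of tiles above each bar. The share of lower tiles goes from 2.57% with 3 to 4 CpGs to 0 with 20 or more, while that of higher tiles stays between 0.169% and 0.385%; the mean level at E19.5 also goes from 57.1% to 2.74% over these classes.

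The 24 higher tiles with 10 or more CpGs hold 466 CpGs, of which 464 were higher in the adult, and in 23 tiles every CpG was. The tiles were chosen by the mean of these same CpGs, so their shared direction is largely set by that choice. Neighbouring CpGs of 1 library are not replicates. In 19 of the tiles all of these CpGs are coding, a share that was not counted over all tiles. Tiles with any coding CpG made up 87.0% of the 46 higher tiles, 80.2% of the lower ones and 57.3% of all tiles. The adult BM brain ranged from 34.4 to 92.6% over these tiles (median 56.1%) and the E19.5 brain from 3.01 to 55.7% (median 24.9%). The WT adult brain, which had no part in choosing them, ranged from 23.9 to 74.8% (median 49.96%). The BM embryo had a median of 16.03% and the WT embryo of 12.6%. In late diploid stem cells the median was 0.755% and the highest tile 5.85%. In 9 of the 24 tiles all 3 embryo libraries were under 5%. By another measure, 13172 of all 19450 tiles had a mean under 10% over the 3 embryos, so low embryo levels are common among tiles at large.

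Otud7a had the largest number of measured CpGs. Its tile of 62 CpGs stood at 4.89% at E19.5 and 41.1% in the adult, and the neighbouring tile of 21 CpGs at 11.4% and 59.7%. The WT adult brain had 30.2% and 49.96% in these tiles and the BM embryo 0.660% and 1.10%. In both tiles all of these CpGs are coding and every one was higher in the adult. Over all 110 measured exonic CpGs of Otud7a the level was 7.19% and 37.3%. In the Kbtbd11 tile of 30 CpGs, a gene for a kelch-domain protein, the levels were 8.98% and 37.05%, with 29.6% in the WT adult and 0.873% in the BM embryo. In the Dact3 tile of 47 CpGs, from a gene for a Wnt pathway inhibitor, they were 27.8% and 56.0%, with 47.9% in the WT adult and 16.9% in the BM embryo.

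Several of the higher tiles lie in genes for proteins of the synapse or of neuronal membranes; they are named here one after another without a claim that such genes are more frequent than elsewhere. Shank1, a postsynaptic scaffold, stood at 26.4% and 55.3% over 25 coding CpGs, with 49.97% in the WT adult and 3.29% in the BM embryo. Dlgap3, another scaffold of the postsynaptic density, stood at 37.1% and 67.5% over 12 CpGs. Another Dlgap3 tile, of 4 CpGs at the gene's start, was lower in the adult, at 89.05% and 47.7%, with 63.2% in the WT adult. Cacna1b, the pore subunit of N-type calcium channels, stood at 31.9% and 68.3% over 16 CpGs, with 55.0% in the WT adult. In all of these tiles of Shank1, Dlgap3 and Cacna1b the WT adult value lay between those of the BM brains. Nrxn2, a neurexin, stood at 8.38% and 40.3% over 11 CpGs of an untranslated exon, with 26.9% in the WT adult and 1.60% in the BM embryo. Gabbr2, a subunit of the GABA-B receptor, had only 4 CpGs, at 37.7% and 79.5%, with 42.1% in the WT adult, so that the WT adult lay near the E19.5 value there.

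Other dense tiles that were higher lie in genes of other kinds. Tnfaip2, a gene induced by tumour necrosis factor, stood at 12.1% and 56.1% over 14 CpGs, with 40.4% in the WT adult. Barhl1, a homeobox transcription factor, stood at 3.01% and 45.8% over 16 CpGs, with 25.4% in the WT adult and 1.78% in the BM embryo. Usp35, a ubiquitin-specific protease, stood at 15.4% and 56.1% over 13 CpGs, with 39.97% in the WT adult. In these 3 genes the embryo libraries were all under 10%, and the E19.5 brain lay nearer to them than to the adult. Epn3, an epsin of the endocytic machinery, stood at 3.63% and 34.4%. Crb2, a cell polarity protein, stood at 45.2% and 75.3%. Sipa1, a GTPase-activating protein for Rap, stood at 18.9% and 49.3% but already at 32.997% in the BM embryo. Agap2, a GTPase-activating protein for Arf, stood at 10.3% and 37.7% with 15.4% in the BM embryo. Among all 46 higher tiles, the BM embryo lay below the E19.5 brain in 30 and above it in 16. Tiles at large were split much the same way, with the BM embryo below in 12668 of 19393 and above in 6693. The split is thus not a trait of the higher tiles, and a higher tile is not always a steady rise from the embryo level.

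**Figure D3:**
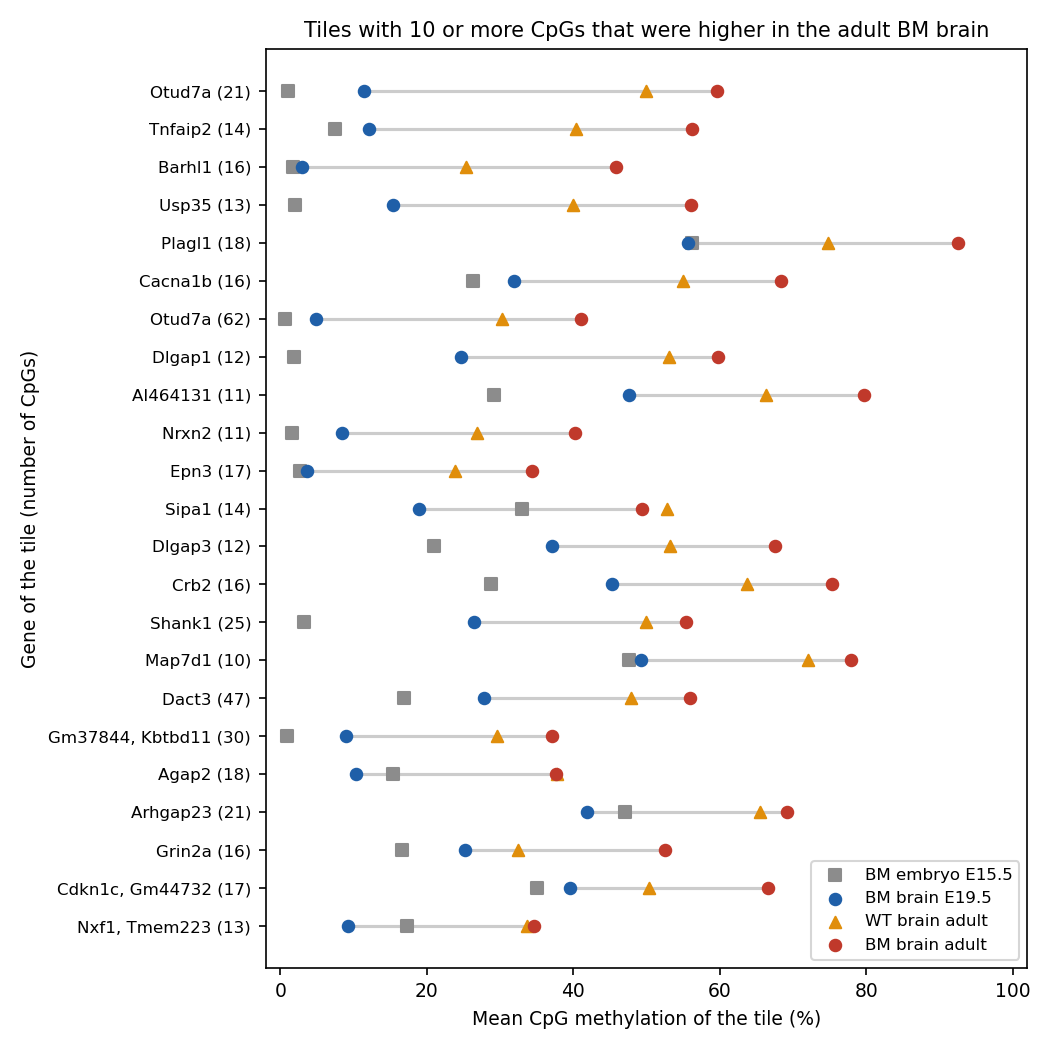
Mean CpG methylation in percent (horizontal axis) of 23 of the 24 tiles with 10 or more CpGs that were higher in the adult BM brain, 1 row per tile with its gene and number of CpGs, in the BM embryo (squares), the BM brain at E19.5 (blue circles), the WT adult brain (triangles) and the BM adult brain (red circles). The grey lines join the BM brains; the WT adult values lie between 23.9 and 74.8%.

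The lower tiles were highly methylated at E19.5 and held few CpGs. Their mean was 79.4% at E19.5 and 47.4% in the adult, with 55.0% in the WT adult, 74.6% in the BM embryo and 72.2% in the WT embryo. In late diploid stem cells it was 21.5%. Only Nfic, with 11 CpGs at 89.5% and 47.1%, and Igsf8, an immunoglobulin superfamily protein of the membrane, with 10 CpGs at 68.5% and 40.3%, had 10 or more CpGs, and their WT adult values were both 51.0%. Chd7, a chromatin remodeller, stood at 95.6% and 69.8% over 7 CpGs, with 69.1% in the WT adult. Fzd9, a Wnt receptor, stood at 69.3% and 41.3% over 7 CpGs, with 42.8% in the WT adult. Among CpGs of 60% or more in the BM embryo, the share that was lower by 25 points or more in the adult brain was 3.56% at 2 to 10 bp from a CCGG, 3.47% at 11 to 30 bp, 4.04% at 31 to 60 bp, 2.29% at 61 to 100 bp and 4.97% of the 563 CpGs more than 100 bp away. This share had no steady order by distance. The share that lay in lower tiles was 1.90%, 1.62% and 1.95% in the classes up to 60 bp and 1.07% in both farther classes. Only CCGG sites of placed sequence were counted, so a CpG far from these can lie near another MspI site. Whether MspI sites have a part in the lower tiles was therefore not tested.

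Both kinds of tile can be set beside the WT libraries, of which neither belongs to the pair, although both adult libraries read low at CCGG sites and neither the WT embryo nor the E19.5 brain did. Of all tiles, 284 of 19403 were higher in the WT adult brain than in the WT embryo (1.46%) and 138 were lower (0.711%). Of the 46 tiles that were higher in the adult BM brain, 25 were among the 284 (54.3% of the BM list, with 0 among the 138). Of the lower tiles, 65 of 186 were among the 138 (34.9%), with 3 among the 284.

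The E19.5 brain stood differently in these 2 sets. Over the 284 tiles higher in the WT adult brain than in the WT embryo, the mean was 25.1% in the WT embryo, 31.4% in the BM embryo, 53.8% in the E19.5 BM brain, 61.1% in the BM adult and 59.4% in the WT adult. The E19.5 value was nearer to the WT adult than to the WT embryo in 247 of the 284 tiles (87.0%). Over the 138 tiles lower in the WT adult brain, the mean was 81.1% in the WT embryo, 81.3% in the BM embryo, 69.7% in the E19.5 brain, 46.1% in the BM adult and 47.8% in the WT adult. There the E19.5 value was nearer to the WT adult in 44 of 138 tiles (31.9%). The E19.5 library was thus nearer to the WT adult in most of the 284 tiles, but not in most of the 138. Both adult libraries read low at CCGG sites, and the E19.5 and WT embryo libraries did not. Age and library can therefore not be told apart in this contrast between the sets. The embryo libraries are whole embryos and not brain, so stage and tissue cannot be told apart in them.

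Gene by gene, over exonic CpGs outside CCGG, 9 of 10880 genes with 5 or more CpGs were higher (0.0827%) and 17 were lower (0.156%). Among genes with 10 or more CpGs the 10 largest rises were in Tnfaip2 (12.1% to 56.1%), Plagl1 (55.7% to 92.6%), Usp35 (26.4% to 61.1%), Otud7a, Epn3 (3.62% to 32.7%), Tmem223 (9.26% to 34.7%), 3110070M22Rik (63.3% to 88.4%), Meioc, a meiotic gene (49.4% to 72.2%), Dact3 (36.05% to 58.4% over 100 CpGs) and Rbmxl2, a testis RNA-binding gene (18.5% to 40.6% over 105 CpGs). Of these, Meioc, Dact3 and Rbmxl2 stayed under 25 points. The 10 largest falls were in Zfp444 (82.5% to 44.8%), Igsf8 (67.8% to 39.2%), Zbtb32, Zbed3, Npm3-ps1, Vps18, Ppfia4, Rnf17, 1700123L14Rik and Tmem184a, and only the first 2 passed 25 points. The other 8 had differences between -17.96 (Tmem184a) and -21.4 points (Zbtb32). The WT adult brain was at 61.1% in Zfp444, 49.8% in Igsf8 and 52.4% in Dact3.

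At promoters, taken from 1000 bp upstream to 500 bp downstream of a start, with 6 or more cytosines that reached 20% in a library outside the pair, 18 of 2766 were higher (0.651%) and 95 were lower (3.43%). These values keep CCGG sites. Without the CCGG sites that could be recognised, 1193 promoters remained, of which 18 were higher (1.51%) and 42 were lower (3.52%). The values that follow include CCGG sites.

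The promoter of Odc1, which encodes ornithine decarboxylase, the first enzyme of polyamine synthesis, stood at 36.6% at E19.5 and 74.1% in the adult over 37 cytosines, with 57.7% in the WT adult and 2.47% in the BM embryo. The promoter of Cacna1e, the pore subunit of R-type calcium channels, stood at 15.9% and 53.01%, with 38.6% in the WT adult and 35.2% in the BM embryo. An exonic tile elsewhere in Cacna1e was lower in the adult, at 63.7% and 26.01% over 3 CpGs. The promoter of Usp35 stood at 15.8% and 52.2%, with 39.4% in the WT adult and 2.89% in the BM embryo, and that of Barhl1 at 13.5% and 47.5%, with 27.9% and 4.88%. Tomm20, a receptor of the mitochondrial outer membrane, stood at 28.01% and 58.7%, with 37.7% in the WT adult and 1.65% in the BM embryo. Cytosines were kept where they reached 20% in a library outside the pair, the WT adult included. With the embryos under 10% in Odc1, Usp35, Barhl1 and Tomm20, the higher WT adult level there can be set in part by that choice. Where cytosines passed through the WT adult brain, the adult BM rise and the count of higher promoters can be shaped by it too. The imprinted Plagl1 and Hymai share a start and stood at 54.1% and 84.8% over 67 cytosines.

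The other 3 of the 10 largest rises were in Gpi1, Cyb5b and Ndufs6. Gpi1, a glycolytic enzyme, stood at 18.4% and 76.0%, with 42.5% in the WT adult, 16.3% in the BM embryo and 31.97% in the WT embryo. Cyb5b, a cytochrome b5 of the mitochondrial outer membrane, stood at 2.64% and 43.1%, but at 35.4% in the BM embryo and 1.44% in the BP embryo. Ndufs6, a subunit of respiratory complex I, stood at 2.14% and 39.6%, but at 44.4% in the BM embryo and 2.12% in the BP embryo. In Cyb5b and Ndufs6 the E19.5 brain and the BP embryo were the low libraries, and the adult brains, BM and WT embryos were all above 30%.

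Among the 10 largest falls, Meg3, an imprinted non-coding RNA of the Dlk1-Dio3 domain, stood at 54.1% at E19.5 and 6.35% in the adult over 10 cytosines (mm9 chromosome 12, 110778206 to 110779706). The WT adult was at 14.0%, the WT embryo at 16.5%, the BM embryo at 72.8% and the BP embryo at 79.02%. A second Meg3 window, described with the imprinted genes, did not fall by 25 points. Tppp3, a tubulin-binding protein, stood at 91.3% and 47.4% with 54.6% in the WT adult, and Gprc5b, an orphan receptor, at 80.3% and 39.3% with 45.6% in the WT adult, while both BM embryo values were above 85%. Clcn4, a chloride-proton exchanger, stood at 68.4% and 27.1%, with 2.31% in the BP embryo. Rpl13-ps6 (93.6% and 45.5%), Espnl (85.5% and 44.5%) and Smim1 (66.7% and 30.03%) were lower in the adult but also at 66.0%, 47.2% and 23.0% in the BM embryo. Ran, a nuclear transport GTPase, stood at 57.07% and 12.1%, with 21.0% in the BM embryo and 4.96% in the WT embryo. The shared start of Nfs1 and Romo1 stood at 37.3% and 1.59%, with 0.764% in the BM embryo and 33.07% in the WT embryo.

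Genes of neurons, neural progenitors, macroglia and development were mostly low over their exons in both brains, and few members passed 25 points. Both hold for genes at large. Over all 10880 genes measured the median exon level at E19.5 was 2.51%, with 0.0827% higher and 0.156% lower by 25 points or more. The median exon level at E19.5 was 2.93% in mature neuron genes, 1.51% in neural progenitor genes, 3.34% in developmental regulators, 5.28% in oligodendrocyte genes and 9.18% in astrocyte genes. It was 59.8% in 7 endothelial and mural genes and 84.4% in 5 microglial genes. The lists were written from general knowledge of these cell types. Of 28 mature neuron genes 7 promoters were measured, and 1 was higher by 25 points or more. That was Grin2a, at 31.2% and 57.3% over 25 cytosines, with 40.8% in the WT adult, 24.0% in the BM embryo, 20.7% in the WT embryo and 20.1% in the BP embryo. The other 6 lay between Dlg4 (23.1% and 14.6%) and Nefm (8.63% and 11.2%), with Kcnc1 at 10.1% and 6.501%. The list's median was 0.244 points, beside -0.735 points over all promoters, of which 0.651% were higher. At exons, 20 of the 28 were measured and 0 passed 25 points. Grin2a again had the largest rise (18.8% to 29.7%), followed by Grin2b (45.7% to 46.4%), and Dlg4 the largest fall (65.8% to 60.8%), followed by Grin1 (19.97% to 17.4%).

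Promoters of glial genes were measured in 1 of 12 astrocyte and 3 of 16 oligodendrocyte genes. All 4 were lower in the adult by less than 25 points, in the direction of 1578 of the 2766 promoters measured. Aldh1l1, a folate enzyme of astrocytes, stood at 40.8% and 26.04%. Mag, a myelin-associated glycoprotein, stood at 71.9% and 54.1%, Mbp, the myelin basic protein, at 27.6% and 17.05%, and Cldn11, a myelin tight junction protein, at 27.9% and 27.1%. The WT adult values were 25.9% for Aldh1l1, 49.6% for Mag, 17.02% for Mbp and 26.8% for Cldn11, and the BM embryo was at 11.7% for Aldh1l1 and 69.8% for Mag. Over exons, 13 oligodendrocyte genes were measured, of which Mobp (85.3% to 66.9%) and Sox10 (39.6% to 33.1%) had the largest falls, and Ugt8a and Olig2 had the largest rises, both under 1 point. Of 6 astrocyte genes measured at exons, Slc1a3 (30.4% to 32.8%) and Glul (14.2% to 16.4%) had the largest rises, and Sox9 (4.199% to 2.71%) and Fgfr3 (16.97% to 16.1%) the largest falls.

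In neural progenitors, 24 of 25 genes were measured at exons and 0 passed 25 points, with a median of -0.00780 points beside -0.214 over all genes. Lhx2 (3.93% to 5.56%) and Sox2 (2.25% to 3.59%) had the largest rises, and Pax6 (8.15% to 4.14%) and Notch1 (44.2% to 40.6%) the largest falls. The promoter of Pax6, a transcription factor of progenitors, stood at 25.6% and 12.9%, and that of Dll1, a Notch ligand, at 5.41% and 10.3%. Of 48 developmental regulators 47 were measured at exons and 0 passed 25 points. Tbx3 (8.87% to 14.3%) and Gbx2 (2.71% to 4.702%) had the largest rises, and Meis1 (39.0% to 17.1%) and Zic4 (7.38% to 3.23%) the largest falls. Of 14 measured promoters of that list 0 passed 25 points, and they ranged from Tbx1 (41.1% and 28.1%) and Hand1 (28.9% and 20.3%) to Hoxd13 (7.07% and 16.5%) and Pax2 (6.97% and 10.5%).

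Of the genes of the methylation machinery, 14 of 19 were measured at exons and 0 passed 25 points. Tet1 (28.1% to 29.1%) and Mbd2 (7.06% to 7.43%) had the largest rises, and Tet2 (52.5% to 50.4%) and Dnmt3a (14.6% to 13.5%) the largest falls. The promoters of Dnmt3a, Tet3 and Hells differed by less than 5 points, while without known CCGG sites Dnmt3a stood at 15.2% and 8.44%. Of 7 endothelial and mural genes measured at exons 0 passed 25 points, with Slc2a1 (60.96% to 61.3%) the 1 rise and Pdgfrb (59.8% to 51.3%) and Cdh5 (88.5% to 82.0%) the largest falls, and the promoter of Cldn5 stood at 48.4% and 40.01%. Of 5 microglial genes measured at exons 2 were higher, Sall1 (84.4% to 90.1%) with the larger rise, and C1qa (15.1% to 8.73%) and Tmem119 (91.2% to 86.5%) had the largest falls. The blood list had 0 measured genes.

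Germline genes, many of which methylation of the start keeps silent outside germ cells, stood high at both ages. Of 19 genes 14 promoters were measured, with medians of 91.1% at E19.5 and 83.9% in the adult, with 2 lower by 25 points or more and a median difference of -5.10 points, beside 3.43% lower and a median of -0.735 points over all promoters. Tex101, a germ cell surface protein, stood at 94.2% and 52.3% over 6 cytosines, with 56.9% in the WT adult and 88.8% in the BM embryo. Sycp3, of the synaptonemal complex, stood at 81.7% and 52.8% over 31 cytosines, with 59.03% in the WT adult and 77.01% in the BM embryo. Rpl10l was the 1 promoter that was higher, at 97.0% and 97.7%, and Mael, of the piRNA pathway, came next at 89.7% and 88.6%. Without known CCGG sites 13 promoters remained, with a median of -1.35 points, beside -2.12 points over all 1193 promoters, and 1 lower by 25 points or more, Sycp3 at 81.3% and 52.7%. At exons Tdrd1, a tudor protein of the piRNA pathway, stood at 94.8% and 68.8% over 5 CpGs, with 68.2% in the WT adult and 81.2% in the BM embryo. Of the other 7 measured at exons, Sohlh2 (90.4% to 90.1%) was lower and Ddx4 (70.01% to 74.9%) and Mael (85.7% to 88.1%) had the largest rises.

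Windows at the starts of imprinted genes were read at both ages. A window of 1000 bp on each side of a start, with 5 or more cytosines, was counted when the WT embryo had 25 to 75%. This left 13 genes listed from general knowledge as methylated on the maternal copy and 2 on the paternal copy. In 6 of these 15 windows (Nespas, Magel2, Mkrn3, Peg12, Meg3 and Cdkn1c) the BP and BM embryos differed by less than 5 points, so no clear difference between parental copies was seen there. The 13 averaged 55.6% (SD 12.4 over windows) at E19.5 and 61.5% (SD 16.5) in the adult. Of them 10 were higher and 3 lower, with 1 in each direction past 25 points. Of the 2766 promoters measured, 1188 were higher and 1578 lower, with 0.651% higher and 3.43% lower by 25 points or more. Those promoters have another window size and were not chosen by their level in the WT embryo. In 7 of the 13 windows the BP embryo was under 10%. These 7 averaged 63.4% (SD 5.64) in the BM embryo, 61.7% (SD 6.13) at E19.5, 71.2% (SD 12.4) in the adult BM library and 58.2% (SD 12.6) in the WT adult.

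Among those 7, Plagl1, a zinc finger transcription factor, stood at 54.1% at E19.5 and 84.8% in the adult over 67 cytosines, with 66.2% in the WT adult and 55.0% in the BM embryo. Peg10, a retrotransposon-derived gene, stood at 55.1% and 78.9% over 19 cytosines, with 69.1% in the WT adult. Nap1l5 stood at 61.2% and 77.35% over 28 cytosines, with 67.8% in the WT adult. Peg3, a zinc finger gene, stood at 61.8% and 73.4% over 8 cytosines, with 44.2% in the WT adult. In Plagl1, Peg10, Nap1l5 and Peg3 the adult BM brain was the highest of the brain and embryo libraries. The difference was 5.04 points in Zrsr1 (64.4% and 69.5%) and 5.31 points in Mcts2 (63.03% and 68.3%). The tile at the Mcts2 start, with 5 CpGs outside CCGG, was however lower in the adult, at 79.7% and 42.6%, with 28.3% in the WT adult. When each library's own cytosines were averaged, these differences turned to -3.93 points in Zrsr1 and -7.82 points in Mcts2, and those past 25 points became 24.2 points in Plagl1, -19.7 points in Nnat and 12.5 points in Cdkn1c. Nnat, neuronatin, went the other way, at 72.4% and 46.1% over 11 cytosines, with 37.0% in the WT adult and 58.3% in the WT embryo.

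In the other 6 maternal windows the BP embryo had 10% or more, and the differences ran from -6.82 points in Peg13 to 8.49 points in Gnas. Gnas stood at 57.1% and 65.6%, Peg12 at 23.6% and 30.9%, Nespas at 60.1% and 63.3%, Mkrn3 at 41.7% and 44.8%, Magel2 at 46.0% and 41.2% and Peg13 at 61.6% and 54.8%. The Magel2 difference of -4.79 points turned to 6.79 points without known CCGG sites and to 0.875 points by the median over cytosines, and the Mkrn3 difference of 3.07 points turned to -2.84 points by the median. Of the windows on the paternal list, Cdkn1c, an inhibitor of cyclin-dependent kinases, stood at 41.4% and 66.6% over 41 cytosines, with 50.8% in the WT adult, 37.1% in the BM embryo and 41.4% in the BP embryo. The Meg3 window (mm9 chromosome 12, 110782608 to 110784608) stood at 33.3% and 26.4% over 7 cytosines, with 24.9% in the WT adult and 59.0% in the BM embryo. Measured but outside the 25 to 75% range in the WT embryo were Snrpn (32.2% and 13.1%), Kcnq1ot1 (62.04% and 54.6%), Igf2 (16.4% and 8.90%) and Zdbf2 (9.66% and 8.002%). A BM value inside a deleted region would come from the remaining copy alone, and the labels do not tell which windows these are.

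**Figure D4:**
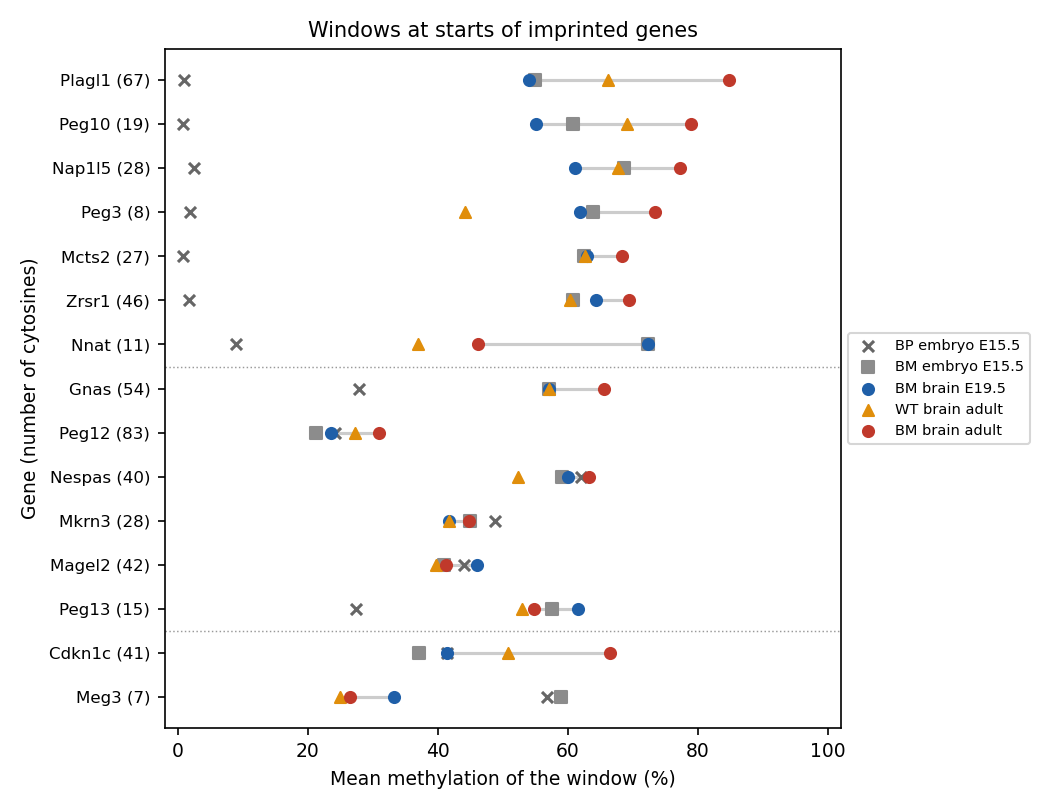
Mean methylation in percent (horizontal axis) of windows at 15 starts of imprinted genes, 1 row per gene with its number of cytosines, in the BP embryo (crosses), BM embryo (squares), BM brain at E19.5 (blue circles), WT adult brain (triangles) and BM adult brain (red circles). The dotted lines separate, from the top, 7 maternal windows with a BP embryo under 10%, the other 6 maternal windows and the 2 paternal ones.

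Non-CpG methylation, read at cytosines after a G, stood at the same level in the E19.5 brain as in the adult brains. At GCAC, the context most methylated in neurons among those listed, the mean over 31812 exonic cytosines was 2.17% at E19.5, 2.10% in the BM adult and 2.29% in the WT adult, against 0.867% in the BM embryo and 0.931% in the WT embryo. At GCT, taken here as the level of unconverted cytosines, the means were 0.577%, 0.502%, 0.718%, 0.368% and 0.399%. GCT itself moved with CpG methylation, at 0.381% in tiles under 10% and 0.898% in tiles of 60% or more at E19.5. In the BM adult it was 0.288% and 0.892%. It therefore need not measure unconverted cytosines alone, and a difference from it is not a corrected level. GCAC minus GCT was then 1.59 points at E19.5, 1.60 in the BM adult and 1.58 in the WT adult, and 0.365 to 0.802 in the 9 libraries that are not brain. The brain label of all 3 libraries thus goes with a value that the other 9 do not reach. The adult-like value at E19.5 goes against the textbook course in which this methylation builds up after birth, and what part stage, label or library has in it was not tested.

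In tiles of 60% CpG methylation or more, GCAC stood at 3.84% at E19.5, 4.08% in the BM adult and 3.95% in the WT adult, against 1.06% in the BM embryo. The same tiles were used for all 12 libraries and need not reach 60% in each. Over exonic CpGs outside CCGG the stem cell libraries averaged only 4.03 to 10.5%, against 15.2% at E19.5. In tiles under 10% CpG methylation it was 0.812%, 0.665% and 1.09% in the brains and 0.737% in the BM embryo. The other CA contexts were lower, with GCAG at 1.01% and 0.938% and GCAA at 0.816% and 0.722% over all exons. In the changed tiles non-CpG values lay on the same side as CpG values. In the 46 higher tiles GCAC was 1.73% at E19.5 and 4.59% in the adult over 70 cytosines, with 3.67% in the WT adult and 0.874% in the BM embryo. In the lower tiles it was 4.6004% and 2.79% over 177 cytosines, with 3.32% in the WT adult and 0.926% in the BM embryo. GCT in these tiles was 0.667% and 0.981% in the higher and 0.771% and 0.783% in the lower ones.

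**Figure D5:**
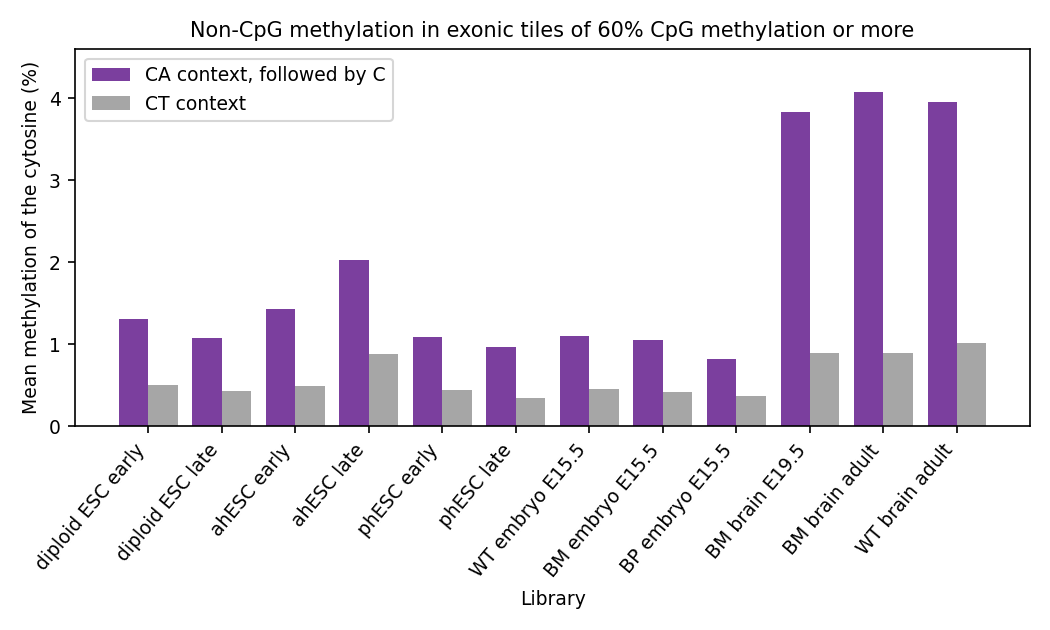
Mean methylation in percent (vertical axis) of exonic cytosines after G in tiles of 60% CpG methylation or more, in each of the 12 libraries, for cytosines followed by AC (purple bars) and by T (grey bars). The 3 brain libraries stand at 3.84 to 4.08% in the first context and the other 9 at 0.817 to 2.03%. The same tiles are used for all 12 libraries and need not reach 60% in each.

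Among 1394 genes with 20 or more exonic GCA cytosines the median difference was -0.0819 points, with 587 higher and 807 lower. The largest rises were in Ntng2, a netrin-like axon guidance protein (1.29% to 4.78%), Pdlim7, an actin-associated protein (2.51% to 5.30%), Rnf157, an E3 ubiquitin ligase of neurons (3.39% to 6.06%), Plekha6 (2.22% to 4.83%) and Ubxn10 (2.64% to 4.87%). The WT adult brain was at 2.96% in Ntng2, 5.65% in Pdlim7, 5.73% in Rnf157, 3.64% in Plekha6 and 4.91% in Ubxn10, and the BM embryo at 0.519 to 1.02% in the 5 genes. In all 5 the adult BM and WT brains were above the BM embryo. The high adult BM values are set in part by the choice of the largest rises. Over all 127877 exonic GCA cytosines the means were also higher in the brains, at 1.20% in the BM adult and 1.47% in the WT adult, against 0.690% in the BM embryo. The 5 largest falls, named after their values were seen, were in Sema6c (3.75% to 0.899%), Ttc34 (5.896% to 3.31%), Ncoa2 (5.58% to 3.55%), Haspin (2.29% to 0.297%) and Cacna1h (2.43% to 0.490%). In these the WT adult was at 2.59%, 4.31%, 2.96%, 2.75% and 1.87%. The adult BM brain lay below the BM embryo in Haspin (0.507% in the embryo) and Cacna1h (0.691%), and above it in Sema6c, Ttc34 and Ncoa2.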

How the data were processed

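RRBS libraries of 12 mouse samples, 1 per group, were read from 1 deposited table. Per the labels' protocols, DNA was cut with MspI and fragments of 150 to 300 bp were sequenced. Per the submitters' processing notes, the authors used Trim Galore and Bismark 0.13.1 on mm9. The deposited values are percent methylation per cytosine, from 0 to 100, with N where there is no value, without read counts and without sequence context. No precision can be given, since depth is unknown.

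Context came from exons of GENCODE M21 and promoters of RefSeq (GRCm38.p6), accepted on mm9 only where at least 8 listed positions matched their CG and GC pattern in full. This placed 83076 of 425215 exons, while a wrong offset of 2017 bp placed 3 of 34460, and gave the context of 34.3% of autosomal positions. No coordinate was converted. CpGs were averaged over strands, and CCGG was left out except at promoters and imprinted windows. Tiles needed 3 CpGs, genes 5, promoters 6 and windows 5 cytosines that reached 20% outside the pair. No test was made, because each group has 1 library. The tile count was also run on a simulated copy of the E19.5 library with known shifts, at an assumed read depth. That copy held no difference in coverage or at MspI sites, so it does not show how many of the calls are right.

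The members, lists and comparisons were chosen with earlier results of these data known, and the 30 imprinted genes were listed after the file was opened, since no earlier table was given. Named genes are listed genes past 25 points, the 2 largest rises and falls of each list, the 10 largest promoter and gene differences each way with 10 or more sites, the 5 largest GCA rises and all imprinted windows measured. Tile genes were named after their values were seen. A few named genes and sequences are not reported here. Alternatives changed the minimum of CpGs, the tile, the MspI sites, the strands, the summary and the cytosines used. Python 3.11.15 was used with pandas 2.3.3, NumPy 2.4.6 and Matplotlib 3.10.9.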

Additional observations from a re-analysis of the deposited data

How the results depend on the processing

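No paired analysis was possible because each group has 1 library, and for the same reason no replicate could be left out. The mean difference over exonic CpGs stayed negative. It was -3.94 points with CCGG sites kept, -15.4 with CCGG sites alone, -1.37 over CpGs that reached 20% outside the pair, -0.287 over CpGs with a value in all 12 libraries and -0.261 over CpGs with both strands. The 46 higher tiles became 24 with at least 10 CpGs, 29 with CCGG kept, 0 with CCGG alone, 30 with both strands and 123 over all cytosines that reached 20%, and the 187 lower tiles became 49 with at least 5 CpGs, 2 with at least 10, 2378 with CCGG kept, 1965 with CCGG alone and 5424 over all cytosines that reached 20%. Alternatives chosen after seeing the data gave 6 higher and 0 lower with at least 20 CpGs, and 7 higher and 20 lower at 40 points. Genes lower by their exons went from 17 to 2 with at least 10 CpGs and to 316 with CCGG kept. Lower promoters went from 95 to 34 with at least 10 cytosines and to 42 without known CCGG. Of listed genes, 3 passed 25 points at promoters and 1 at exons. Of imprinted windows 3 passed, and 0 when each library's own cytosines were used. The GCAC difference of -0.0722 points was -0.0530 over cytosines with a value in all 12 libraries, -0.0786 without values of 50% or more, and -10.7 as the share of cytosines above 0%. Read depth per cytosine is unknown and limits every value.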
